A study of Mus musculus with 6 samples.

Results

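Cone nuclei were taken from single-nucleus RNA libraries of mouse retina by a marker gate, and numbered 3721 among 55230 kept barcodes and 62893 deposited ones. The gate asked for at least 3 of 9 cone genes (Arr3, Pde6c, Gnat2, Opn1mw, Opn1sw, Cngb3, Pde6h, Kcne2 and Gngt2) with a UMI, a unique molecule tag that counts 1 captured transcript. It also asked for at least 4 UMIs over these genes together, and for at most 1 UMI over 10 genes of inner retinal neurons and Müller glia (Trpm1, Grm6, Grik1, Slc1a3, Gad1, Gad2, Slc6a9, Rbpms, Slc17a6 and Lhx1). A barcode was kept if 300 or more genes were detected and if mitochondrial transcripts gave no more than 5% of its UMIs. The nuclei were thus chosen by their UMIs of the 9 gate genes and the 10 excluded genes, and the levels of these genes are given as a description only.

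The series measured nuclear RNA of retina from WT mice of the strain given as C57BL6/J, with 3 libraries at 3 months and 3 at 18 months of age. According to its title, the series is about age-related loss of vision and dietary polyunsaturated fatty acids, and none of the libraries is from supplemented animals. The labels give no sex and do not say that each library came from a separate animal, so p-values measure only the spread between libraries, which may be technical. Library totals ran from 15905689 to 29340705 UMIs.

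Cones are the photoreceptors of daylight and colour vision and are far outnumbered by rods in the mouse. Light closes a cyclic nucleotide-gated channel through an opsin, transducin and a phosphodiesterase, for which cones use their own paralogues of the rod proteins. Mouse cones carry a medium-wavelength opsin (Opn1mw, M-opsin), a short-wavelength opsin (Opn1sw, S-opsin) or both, and M-opsin requires the thyroid hormone receptor encoded by Thrb.

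The gate took 590, 432 and 525 nuclei from the 3-month libraries and 550, 1122 and 502 from the 18-month libraries, each in the order of their replicate numbers. These were 11.2%, 6.61% and 7.59% of the kept barcodes at 3 months and 9.34%, 6.94% and 3.47% at 18 months. The ages overlapped, at 8.48% ± 2.44 and 6.58% ± 2.95 (SD, n = 3 each). The difference of -1.90 percentage points was smaller than the spread between libraries (exact two-sided permutation test, p = 0.5, where 0.1 is the smallest p that 3 against 3 libraries can give). Replicate 1 of both ages was counted with Cell Ranger release 7.1.0 and the other libraries with release 7.2.0, and the difference was -1.91 points within the first release and -1.90 within the second. As a share of all deposited barcodes the difference was 0.0863 points (exact permutation p = 0.9). The mitochondrial limit removed 41.9%, 23.8% and 9.36% of barcodes at 3 months and 9.16%, 2.11% and 1.12% at 18 months.

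Cone nuclei of 18-month replicate 3 stood apart in how far they passed the gate. The median cone nucleus held 19, 14 and 17 gate UMIs at 3 months, and 26, 11 and 5 at 18 months. Nuclei with over 10 gate UMIs, a limit set after the data had been seen, made up 84.7%, 54.9% and 62.9% of cone nuclei at 3 months and 89.3%, 50.5% and 14.9% at 18 months. In 18-month replicate 3 this left 75 of 502 nuclei. Results that rest on this library are given below with and without it.

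Just inside the gate, 554 nuclei held exactly 4 gate UMIs, 179 of them from 18-month replicate 3, and 884 barcodes met every other condition with 3. Gnb3, the cone beta subunit of transducin, which the gate did not use, shows the step. In CPM (UMIs of a gene scaled to the library's summed UMIs over those nuclei), Gnb3 over the nuclei just outside stood at 129, 130 and 130 at 3 months and at 87.8, 185 and 203 at 18 months. Over the nuclei with 4 gate UMIs it stood at 166, 200 and 143, and at 66.1, 298 and 159. Over those with more than 10 it stood at 776, 1493 and 1740, and at 992, 1354 and 457. Nuclei at the edge of the gate were thus close in Gnb3 to those outside it, and nuclei with more gate UMIs were higher in all 6 libraries.

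**Figure D1:**
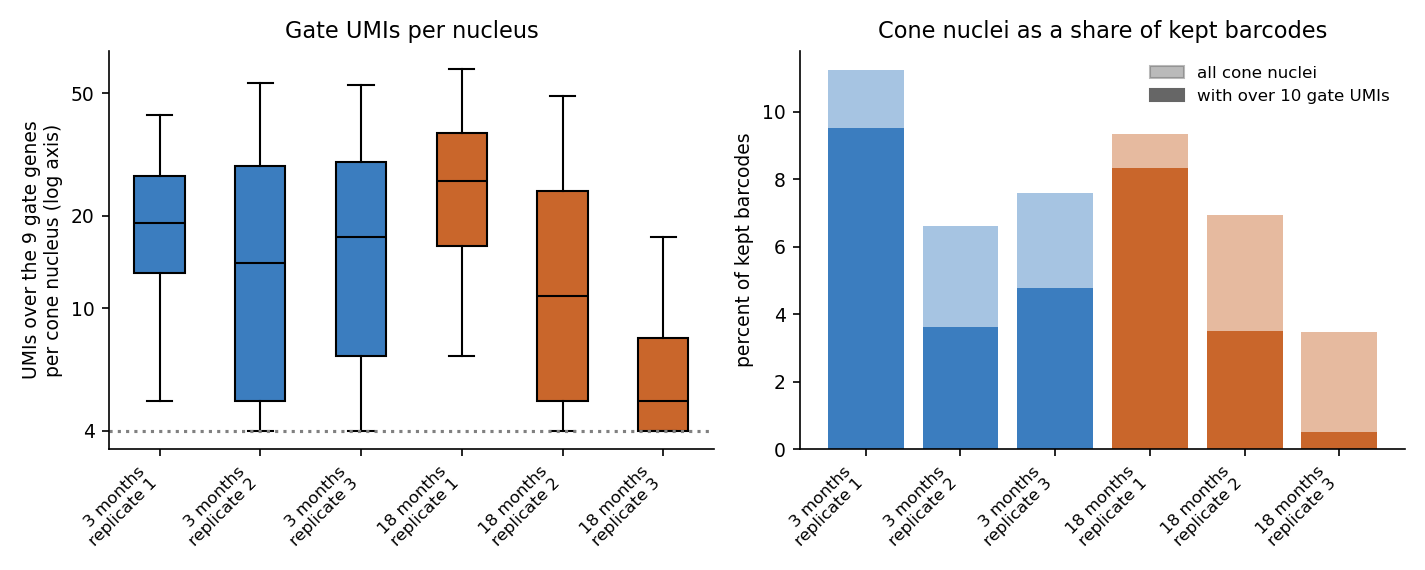
Left, cone gate UMIs per cone nucleus in each library on a log axis (box, quartiles; line, median; whiskers, 5th to 95th percentile; dotted line, the lower limit of 4). Right, cone nuclei as a percent of kept barcodes, for all cone nuclei (light) and those with over 10 gate UMIs (dark). The median is lowest in 18-month replicate 3, at 5 UMIs, where the dark bar is a small part of the light one.

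Median depth per cone nucleus was 1216, 1277 and 1264 UMIs at 3 months and 1484, 1302 and 1310 at 18 months, with 878, 866 and 887 detected genes against 1049, 934 and 982.5. The mitochondrial share of UMIs in the median cone nucleus was 3.27%, 2.63% and 1.44% at 3 months and 1.33%, 1.26% and 1.32% at 18 months. The ages did not overlap in any of the 3 measures, with depth and detected genes higher and the mitochondrial share lower at 18 months (exact permutation p = 0.1 for each, the smallest possible). Per library the cone nuclei summed to between 647646 and 1878244 UMIs. One barcode was shared between cone nuclei of different libraries, those of 18-month replicates 2 and 3.

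The gate genes of signalling came first in the description. Arr3, the cone arrestin that ends the signal of a lit opsin, stood at 7228, 5253 and 5086 CPM in the cone nuclei of the 3-month replicates and at 7833, 4021 and 1647 in those of the 18-month replicates. In rod nuclei, taken by a parallel gate of rod genes (15175 nuclei with at most 1 cone gate UMI), Arr3 lay between 27.8 and 94.4 CPM. The rod gate used the cone genes too, so this contrast describes the gates. Pde6c, the catalytic subunit of the cone phosphodiesterase, stood at 1181, 787 and 655 CPM and at 1490.4, 671 and 377. Gnat2, the cone transducin alpha subunit, stood at 517, 624 and 758 CPM and at 617, 498 and 161. Each was lowest in 18-month replicate 3, and without that library the ages overlapped in Arr3, Pde6c and Gnat2.

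Cngb3, a subunit of the cone channel, stood at 1519.6, 1635 and 1086 CPM and at 1946, 1359 and 882. Pde6h, the inhibitory subunit of the phosphodiesterase, stood at 704, 1244 and 1279 CPM and at 742, 924 and 371. Gngt2, the cone transducin gamma subunit, stood at 242, 496 and 563 CPM and at 251, 313 and 171. Pde6h and Gngt2 were lower in replicate 1 of both ages than in the release 7.2.0 libraries other than 18-month replicate 3. Kcne2, a potassium channel subunit, stood between 53.1 and 134 CPM in the 6 libraries, lowest again in 18-month replicate 3.

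Opn1mw stood at 2018, 1927 and 1634 CPM in cone nuclei at 3 months and at 1833, 1314 and 528 at 18 months. Opn1sw stood at 821, 806 and 1383 CPM and at 1157, 920 and 300. An Opn1mw UMI was present in 80.0%, 72.5% and 73.0% of cone nuclei at 3 months and in 68.9%, 64.4% and 52.4% at 18 months. For Opn1sw the shares were 52.4%, 48.1% and 62.7%, and 61.8%, 58.9% and 34.3%. Both opsins were found in 35.8%, 28.9% and 42.3% of cone nuclei, and in 35.5%, 33.4% and 13.5%. The opsins are gate genes, so these shares depend on the gate, and the ages overlapped in the share with Opn1sw and in the share with both, but not in that with Opn1mw.

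Inner retinal nuclei, which should lack opsins, give a background of opsin UMIs. There an Opn1mw UMI was present in 10.4% to 25.4% of nuclei over the 6 libraries, an Opn1sw UMI in 12.7% to 21.7% and both in 4.47% to 10.6%. The median inner nucleus was deeper, at 2472 to 5005 UMIs against 1216 to 1484 in cones. All cone shares were above the background of their own library, but opsin UMIs helped to choose the cone nuclei, so this depends on the gate. How much of the background came from free RNA or from doublets was not tested.

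Promoter windows are shown for genes that define cone nuclei here or that differed most from rods. Each covers 250 bases before to 50 after the gene start on the gene's strand (RefSeq, GRCm38.p6), and capitals mark a match to TAATCC or its reverse complement GGATTA, letters bound by the photoreceptor factor CRX. The windows are Gnat2 (chr3:108092816-108093115, plus strand), Opn1mw (chrX:74127216-74127515, plus strand), Opn1sw (chr6:29380464-29380763, minus strand) and Abcb1b (chr5:8797897-8798196, plus strand).
Gnat2: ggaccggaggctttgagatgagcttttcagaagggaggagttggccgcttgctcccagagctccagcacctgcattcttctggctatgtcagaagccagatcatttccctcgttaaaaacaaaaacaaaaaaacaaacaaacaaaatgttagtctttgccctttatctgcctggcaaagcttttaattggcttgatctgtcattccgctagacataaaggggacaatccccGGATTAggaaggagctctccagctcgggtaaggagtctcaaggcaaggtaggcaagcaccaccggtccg
Opn1mw: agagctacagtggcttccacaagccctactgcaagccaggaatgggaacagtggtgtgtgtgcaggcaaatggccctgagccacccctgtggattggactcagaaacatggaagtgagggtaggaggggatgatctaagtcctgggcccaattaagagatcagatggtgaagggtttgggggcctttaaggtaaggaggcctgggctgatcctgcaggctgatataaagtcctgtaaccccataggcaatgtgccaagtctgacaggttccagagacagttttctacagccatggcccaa
Opn1sw: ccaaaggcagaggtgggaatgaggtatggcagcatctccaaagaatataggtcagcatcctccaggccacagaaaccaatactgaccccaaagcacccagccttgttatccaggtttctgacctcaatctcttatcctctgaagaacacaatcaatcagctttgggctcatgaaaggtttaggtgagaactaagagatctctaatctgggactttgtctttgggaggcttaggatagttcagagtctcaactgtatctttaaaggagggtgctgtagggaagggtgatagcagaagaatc
Abcb1b: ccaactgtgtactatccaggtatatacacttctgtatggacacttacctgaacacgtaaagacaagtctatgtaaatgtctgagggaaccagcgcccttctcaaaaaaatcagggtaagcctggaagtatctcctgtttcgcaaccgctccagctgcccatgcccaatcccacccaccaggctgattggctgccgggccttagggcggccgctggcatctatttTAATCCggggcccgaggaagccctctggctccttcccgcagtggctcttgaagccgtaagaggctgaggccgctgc

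Gnat2 held 1 match and Abcb1b, a membrane transporter gene whose level in cone nuclei is given below, held 1. The windows of both opsins held none, which says only that these letters are not in these windows. Of the gate genes, 6 had a window in RefSeq's set and 1 of these held a match (16.7%). The share was 7.06% over all windows of the set and 7.32% over the genes tested between cone and rod nuclei.

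Cone nuclei were then compared with rod nuclei of the same libraries, to see which genes outside both gates set them apart. The sums of each library were tested with edgeR's quasi-likelihood test, with a term per library and Benjamini-Hochberg adjustment over 12113 genes. In cone nuclei 958 genes were higher (7.91% of those tested) and 1438 lower (11.9%), and 3698 had an unadjusted p under 0.05. Leaving out 18-month replicate 3 gave 1450 higher and 1459 lower. The 24 genes taken by size and level below had the same call in every alternative run.

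Among 12 known cone genes outside the gate, 10 were tested and 7 were higher in cone nuclei, 1 lower, with a median log2 difference of 2.21. Gnb3 (ENSMUSG00000023439, mm10 chromosome 6, 124834240 to 124840275, minus strand) stood at 748, 997 and 1302 CPM in cone nuclei at 3 months and at 931, 895 and 268 at 18 months, against 61.1 to 169.7 in rod nuclei. The lowest cone library was thus above the highest rod library, with a log2 difference of 2.87 ± 0.31 (SE; edgeR, adjusted p = 0.000192). Cnga3, the other subunit of the cone channel, stood at 12.7 CPM in the lowest, 21.7 in the median and 107 in the highest cone library, against 0.663, 1.87 and 4.37 in rod nuclei. Its log2 difference was 3.90 ± 0.43 (edgeR, adjusted p = 0.000233), with no overlap between the cell types. Replicate 1 of both ages held the 2 highest Cnga3 values, 107 and 92.0 CPM.

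Slc24a2, the cone exchanger that carries sodium, calcium and potassium, stood at 253, 329 and 853 CPM (lowest, median and highest cone library) against 78.1, 114 and 212 in rod nuclei. The log2 difference was 1.79 ± 0.31 (edgeR, adjusted p = 0.00222). Mylk, a myosin light chain kinase, stood at 175, 343 and 996 CPM against 36.4, 50.6 and 92.7 (3.00 ± 0.25; edgeR, adjusted p = 2.81e-05). Ccdc136 was higher by 2.64 ± 0.42, at medians of 334 and 54.5 CPM. Sall3, a zinc finger gene, and Otop3, a proton channel gene, lay below the low-count filter, with cone medians of 26.2 and 21.1 CPM and rod medians of 2.24 and 0.883.

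Of 20 tested photoreceptor transcription factors 7 were higher in cone nuclei and 1 lower (median log2 difference 0.26). Rxrg, the retinoid X receptor of cones, stood at 13.9, 26.6 and 75.8 CPM (lowest, median and highest) against 3.37, 4.78 and 8.73 in rod nuclei, a log2 difference of 2.68 ± 0.33 (edgeR, adjusted p = 0.0005). Prdm1, a repressor that acts in photoreceptor precursors, stood at medians of 119 and 24.4 CPM (2.58 ± 0.15; edgeR, adjusted p = 2.75e-06). Thrb was present in both cell types, at 455, 697 and 1016 CPM in cone and 237, 487 and 801 in rod nuclei. The Thrb ranges overlapped between libraries while the difference within libraries was 0.66 ± 0.13 on the log2 scale (edgeR, adjusted p = 0.00417). Crx, the homeobox factor of both photoreceptors, was higher by 0.56 ± 0.14, and Tbx2 stood at -0.52 without passing (edgeR, adjusted p = 0.0723).

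The rod paralogues in the same nuclei are given beside these differences. The cone to rod ratio of CPM over the 6 libraries was 0.632 to 1.02 for Gnat1, the rod transducin alpha subunit, 0.428 to 0.883 for Pde6a, and 0.498 to 0.917 for Cnga1. It was 1.04 to 1.62 for the rod arrestin Sag and 0.896 to 1.29 for Pde6g. Summed over 20 rod genes, cone nuclei held 17388 to 58308 CPM and rod nuclei 22768 to 66752. The 20 include genes of the rod gate, which chose the rod nuclei. The rod sum, and the rod level of any such gene, thus depend on that gate. Other kept barcodes held 10275 to 33233 CPM of the same genes. Of the rod list 11 genes outside the gates were tested, and 0 were called in either direction (median log2 difference -0.15). Over all genes tested 7.91% were called higher and 11.9% lower. Without 18-month replicate 3, 1 of the 11 rod genes was called higher in cone nuclei. How much of the rod RNA in cone nuclei came from free RNA or from doublets was not tested.

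**Figure D2:**
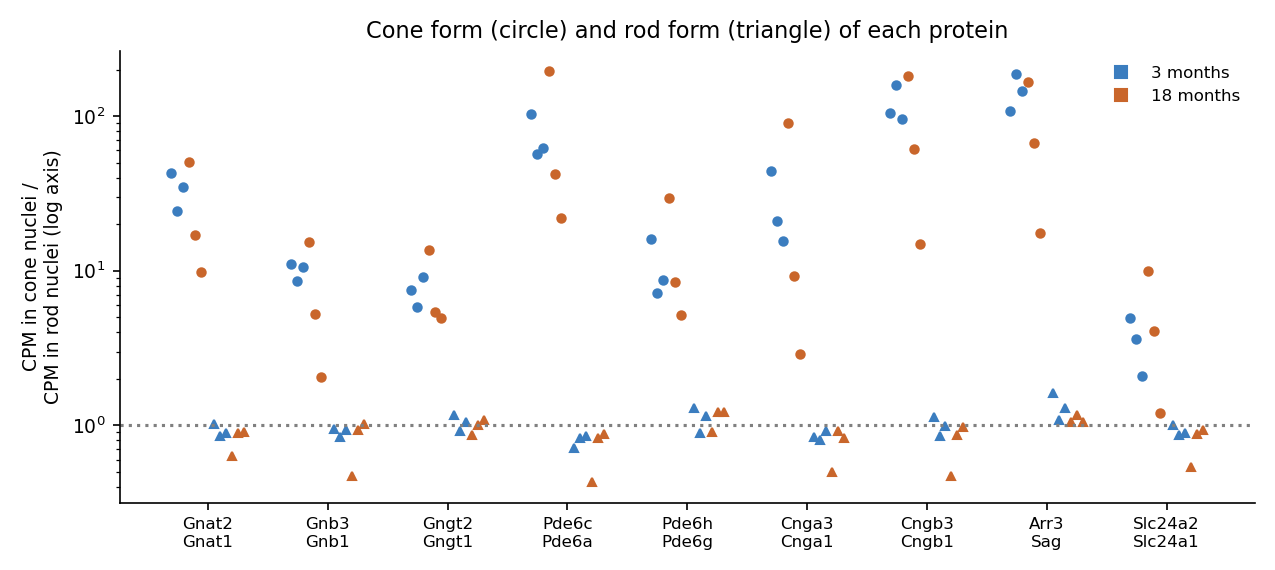
Ratio of CPM in cone nuclei to CPM in rod nuclei for pairs of cone (circles) and rod (triangles) paralogues, 1 point per library, coloured by age, on a log axis. Rod paralogues lie between 0.428 and 1.62, and cone paralogues lie above 1 in all 6 libraries. Circles other than Gnb3, Cnga3 and Slc24a2 are cone gate genes. Rod nuclei could hold at most 1 UMI over the cone gate genes, so these circles describe the gates. Triangles of any rod gate gene likewise depend on the rod gate.

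Of the cone phototransduction list 12 genes outside the gates were tested, 3 higher (Cnga3, Gnb3 and Slc24a2) and 1 lower, the guanylate cyclase Gucy2f at -0.49 ± 0.15 (median of the list 0.24). Guca1a, a cyclase activating protein, had a log2 difference of 0.32 (edgeR, adjusted p = 0.0736) and Rgs9, which speeds the shut-off of transducin, of 0.30 (adjusted p = 0.122), and neither passed. Of 20 photoreceptor channels and exchangers 6 were higher and 2 lower (median 0.10). Cacna1f, the calcium channel of the photoreceptor terminal, stood at medians of 189.6 and 99.3 CPM in cone and rod nuclei (0.70 ± 0.12), and Atp2b2, a plasma membrane calcium pump, at 81.8 and 189.8 (-1.02 ± 0.16).

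Of 30 tested ribbon synapse genes 9 were higher and 3 lower (median 0.28). Dmd, which encodes dystrophin, stood at medians of 4261 CPM in cone and 2050.5 in rod nuclei (0.89 ± 0.16), and Sv2b, a synaptic vesicle protein, at 412 and 266 (0.78 ± 0.14). Rims1, an active zone protein, went the other way, at 101 and 229.7 CPM (-1.30 ± 0.20; edgeR, adjusted p = 0.00127). Of 29 genes of the outer segment and connecting cilium 9 were higher and 1 lower (median 0.21). They included Rpgrip1 (medians of 1387 and 688 CPM, 0.86 ± 0.15) and Lca5 (194 and 108 CPM, 0.72 ± 0.13), both genes of inherited retinal disease. Of 25 cone disease genes outside the gates 6 were higher and 1 lower (median 0.20).

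The lipid lists bear on the title of the series, and over all genes tested 7.91% were called higher and 11.9% lower. Of 19 tested genes of fatty acid elongation and desaturation 4 were higher in cone nuclei and 3 lower (median -0.07). Elovl2, an elongase needed to make docosahexaenoic acid (DHA), stood at 30.4, 82.8 and 153 CPM (lowest, median and highest) in cone nuclei against 23.4, 33.5 and 48.7 in rod nuclei, a log2 difference of 1.23 ± 0.17 (edgeR, adjusted p = 0.000828). Elovl7, another elongase, stood at medians of 51.1 and 6.44 CPM (2.88 ± 0.38), Elovl6 was higher by 0.98 ± 0.19, and Fads2, the delta-6 desaturase, was lower at -0.79 ± 0.14. The ranges of Elovl2 overlapped between the cell types only through the lowest cone library.

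Of 13 genes of DHA uptake and phospholipid remodelling 1 was higher, Lpcat2, an acyltransferase of phospholipids (medians of 159 and 70.1 CPM, 1.20 ± 0.17), and 2 were lower (median of the list -0.01). Of 25 genes of cholesterol synthesis and uptake 1 was higher and 7 lower (median -0.31), among them Hmgcs1, which acts early in cholesterol synthesis, at -0.58 ± 0.12. Of 14 retinoid visual cycle genes 0 were higher and 1 lower (median -0.08), the retinaldehyde-binding protein Rlbp1 at -0.42. Of 25 glycolysis genes 2 were higher and 2 lower (median 0.01), with Hk2, the hexokinase of photoreceptors, at medians of 641 and 352 CPM (0.68 ± 0.17). The called shares of the DHA, visual cycle and glycolysis lists were near or below those over all genes, 7.91% higher and 11.9% lower.

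In oxidative phosphorylation 0 of 74 genes were called (median -0.00), as were 0 of 13 mitochondrially encoded genes (-0.11) and 0 of 78 cytosolic ribosomal protein genes (-0.09). Of 33 heat shock and unfolded protein genes 1 was higher (median -0.06), the chaperone Hsph1, and of 24 antioxidant and metallothionein genes 2 were lower (-0.13). Of 21 clock genes 2 were higher and 2 lower (-0.01), of 10 immediate-early genes 2 were higher (-0.13) and of 11 interferon and antigen presentation genes 2 were higher (-0.03). Over all genes 7.91% were higher and 11.9% lower, and the clock list was near both shares. In the immediate-early and interferon lists 0 genes were lower, and the share called higher was above 7.91% on 2 genes each.

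By size of difference, the 12 highest genes with at least 50 CPM were Wdr95, Kif4, Gm32884, Abcb1b, C230014O12Rik, Cdk6, Tafa3, Gm31615, Enam, Prtg, Gm50100 and 1110017D15Rik, at log2 differences of 3.38 to 6.10. Wdr95, a WD repeat gene, stood at 13.9, 37.4 and 138 CPM (lowest, median and highest) in cone nuclei and at 0, 0.598 and 1.21 in rod nuclei (6.10 ± 0.38; edgeR, adjusted p = 3.05e-06). Abcb1b, a P-glycoprotein drug efflux transporter, stood at 13.9, 62.2 and 286 CPM against 2.32, 3.65 and 9.26 (4.14 ± 0.50; edgeR, adjusted p = 0.000445). Cdk6, a cyclin-dependent kinase, stood at 39.2, 81.3 and 225 CPM against 2.32, 6.34 and 13.6 (3.81 ± 0.36; edgeR, adjusted p = 8.88e-05). In these 3 genes the lowest cone library was above the highest rod library.

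Tafa3, a secreted protein gene, stood at 65.8, 182 and 274 CPM against a rod median of 9.65 (3.73 ± 0.31; edgeR, adjusted p = 2.73e-05). Prtg, a cell surface protein of the immunoglobulin superfamily, stood at 32.9, 50.4 and 178 CPM against 3.06, 5.21 and 10.3 (3.50 ± 0.37). Kif4, a kinesin gene that starts 7244 bases past the end of Arr3 on the same strand (X, 100625737 to 100727214), stood at 10.1, 74.5 and 291 CPM against 0.331, 1.56 and 3.09 (5.59 ± 0.47; edgeR, adjusted p = 3.18e-05). Whether Kif4 counts hold transcripts that run on from Arr3, the neighbouring gate gene, was not tested. Of the 12 highest genes 10 had a promoter window and 2 of these held the TAATCC match (20%), while among all genes called higher 79 of 689 with a window did (11.5%) and among those called lower 58 of 1045 (5.55%).

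Further genes were chosen after their values had been seen, for their level and known roles. The beta-1 adrenergic receptor gene Adrb1 was higher by 2.95 ± 0.32 (medians of 136 and 16.2 CPM). The GABA receptor subunit gene Gabra5 was higher by 2.87 ± 0.45 (168 and 27.8 CPM), the synaptic adhesion gene Lrfn2 by 2.71 ± 0.30 (183 and 47.7 CPM), and the atypical kinase gene Mapk4 by 3.24 ± 0.34 (179 and 19.1 CPM). All 4 passed in edgeR, with adjusted p between 0.000182 and 0.00152.

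Adhesion genes were mostly lower in cone nuclei. Of 47 tested cadherin and neuronal adhesion genes 37 were lower and 4 higher (median log2 difference -0.97), against 11.9% and 7.91% of all genes. Cdh18, a type II cadherin, was among the 4, at 1465, 1903 and 3879.7 CPM (lowest, median and highest) in cone nuclei against 169.6, 255 and 776 in rod nuclei (2.87 ± 0.35; edgeR, adjusted p = 0.000496). Pcdh15, a protocadherin of photoreceptors and hair cells, stood at medians of 5041 and 1292 CPM (2.24 ± 0.27). Of the lower members, Lrrc4c, a postsynaptic adhesion gene, stood at 227, 297 and 1642 CPM against 706, 1072 and 2193 (-1.64 ± 0.22; edgeR, adjusted p = 0.000723), and Nlgn1, a neuroligin, at medians of 228 and 589.9 CPM (-1.58 ± 0.24).

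The Kv4 channel complex, which carries a fast potassium current in neurons, had 7 of 9 genes lower and 0 higher (median -1.11). Kcnip4 stood at medians of 742 and 2312 CPM (-1.50 ± 0.21) and the channel subunit gene Kcnd2 at 51.1 and 257 (-1.47 ± 0.26). The median without 18-month replicate 3 was -1.41 for the Kv4 list and -1.14 for the adhesion list. The 12 lowest genes were Thsd7b, D130079A08Rik, Hs6st3, Arhgap15, Gm45459, Lrrc4c, Gm32647, Epha6, Etl4, Ptchd4, Tmeff2 and Frmpd4, at -2.28 to -1.59. Thsd7b, a thrombospondin repeat gene, stood at 11.7, 18.9 and 130.3 CPM against 49.2, 172 and 262 (-2.28 ± 0.35; edgeR, adjusted p = 0.00143). In each of the 12 the cone value was below the rod value in all 6 libraries, the highest cone value came from 18-month replicate 3, and mean levels over the other kept barcodes were 70.1 to 2265 CPM.

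**Figure D3:**
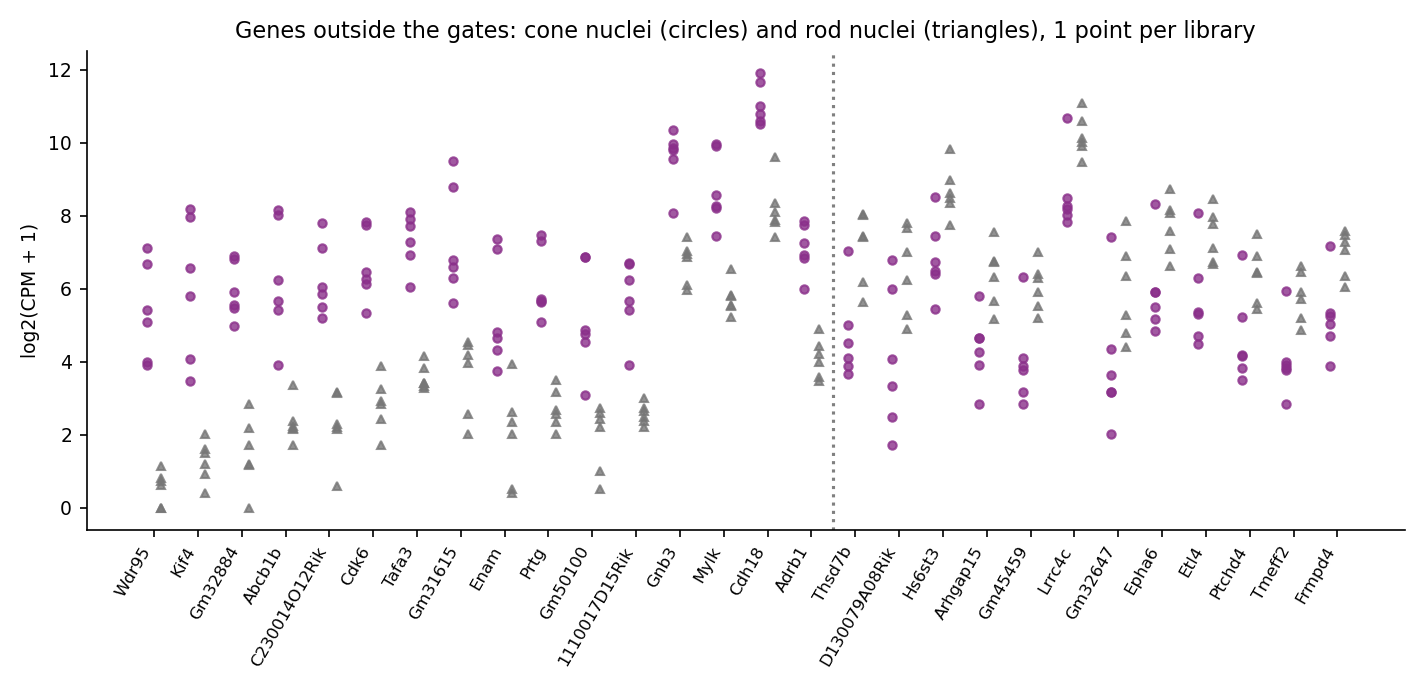
Log2(CPM + 1) in cone nuclei (circles) and rod nuclei (triangles) for the 12 highest genes, 4 chosen cone genes and the 12 lowest, 1 point per library. Within each library circles lie above triangles in the first groups and below them in the last. Across libraries the ranges of Enam overlap.

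Markers of inner neurons and glia were lower in cone nuclei or not called, with few exceptions. Over all genes 11.9% were lower and 7.91% higher. Of the tested markers 5 of 8 amacrine, 6 of 8 horizontal, 7 of 11 retinal ganglion and 5 of 13 Müller glia genes were lower and 0 higher. Their median log2 differences were -0.80, -0.94, -0.54 and -0.38. Of 9 rod bipolar markers 2 were higher and 3 lower (-0.20), and of 8 cone bipolar markers 2 and 2 (-0.20). Pigment epithelium, vascular and microglia markers had 1 of 7, 2 of 5 and 1 of 6 lower and 0 higher (-0.42, -0.74 and -0.49). Some of these markers were used by both gates and were left out of the counts.

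The age comparison asked which transcripts of cone nuclei differ between 3 and 18 months. With age as the only term, 0 of 10172 genes passed in edgeR (0% called, with 191 at an unadjusted p under 0.05 and a smallest adjusted p of 0.953). With the Cell Ranger release as a further term, 0 of 10172 passed as well (0% called, 992 at an unadjusted p under 0.05, smallest adjusted p 0.116). DESeq2 called 2 genes with age alone, Col4a3 and Gm33497, and 67 with the release, where it gave 903 genes an adjusted p. These were 7 higher and 60 lower at 18 months, of which 20 were ribosomal, 10 of oxidative phosphorylation and 4 mitochondrially encoded. Without the low-count filter edgeR called 1 and 212. Without 18-month replicate 3 the release fit called 25 genes, 14 higher and 11 lower, while the fit with age alone still called 0.

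The gene with the smallest adjusted p was Col4a3, a type IV collagen chain of basement membranes (mm10 chromosome 1, 82586921 to 82722059, plus strand). In cone nuclei it stood at 31.0, 25.6 and 29.4 normalised CPM at 3 months and at 133, 101 and 108 at 18 months. All 18-month libraries lay above all 3-month libraries, with a log2 difference of 1.98 ± 0.21 (SE) in the release fit (edgeR, adjusted p = 0.116, and 0.953 with age alone). Without 18-month replicate 3 the adjusted p was 2.32e-06, and DESeq2 with age alone gave 0.00125. In rod nuclei the difference was 1.83, and the test of the difference between cones and rods gave 0.15 (edgeR, adjusted p = 0.976).

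The further genes with the lowest p by the naming rule did not pass in edgeR over 6 libraries either, and are given as values. Immp2l, a mitochondrial inner membrane protease gene, stood at 299.8, 145 and 138 normalised CPM and at 476, 410 and 555 (log2 difference 1.39 ± 0.29). Glb1l3, a galactosidase-like gene, stood at 35.6, 15.4 and 34.1 and at 71.0, 121 and 77.9 (1.63 ± 0.36). Rarb, a retinoic acid receptor, stood at 31.0, 35.8 and 22.4 and at 67.0, 77.9 and 57.4 (1.21), with Zfp934 at 1.14 and the peptide transporter Slc15a2 at 1.20. The naming rule took only genes whose ages did not overlap, and in edgeR with the release each had an adjusted p of 0.498. Without 18-month replicate 3 that fit called Glb1l3 (adjusted p = 0.000364), Immp2l (0.00239), Rarb (0.00844) and Slc15a2 (0.0484), and Zfp934 did not pass (0.115). DESeq2 with the release and all 6 libraries gave Immp2l an adjusted p of 0.00504.

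On the lower side Rbp3, the retinoid-binding protein that photoreceptors secrete, stood at 1301, 1229 and 1014 normalised CPM at 3 months and at 726, 565 and 437 at 18 months. Its log2 difference was -1.05 ± 0.24 (edgeR, adjusted p = 0.498; DESeq2 with the release, 0.00504). Mfge8, a secreted protein used in the clearing of outer segments, stood at 179, 159 and 126 and at 89.7, 93.4 and 61.5 (-0.90). Pdia4, an endoplasmic reticulum chaperone, stood at 37.9, 41.0 and 45.9 and at 12.8, 25.6 and 16.4 (-1.16), with Dolk at -1.08, Tapbp at -0.97 and the ribosomal gene Rps29 at -1.22. All 3-month libraries lay above all 18-month libraries in these genes because the rule required it. Each had an adjusted p of 0.498 in edgeR with the release. Leaving out 18-month replicate 3, edgeR called Rps29 (adjusted p = 0.0282; DESeq2 over 6 libraries, 0.00504), while Rbp3 (0.0696), Mfge8 (0.102), Tapbp (0.117), Pdia4 (0.121) and Dolk (0.302) did not pass.

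Over 6 libraries edgeR called no gene of any list. DESeq2 with the release called genes of several lists, against 60 lower among all 903 genes with an adjusted p. Lower were 20 of 69 ribosomal, 10 of 36 oxidative phosphorylation, 4 of 10 mitochondrially encoded and 9 of 17 rod genes with an adjusted p. Lists are described by the direction of their members in edgeR's release fit, where the median over all genes was 0.02. Of 78 ribosomal protein genes 78 were below 0 (median log2 difference -0.68), of 74 oxidative phosphorylation genes 73 (-0.64) and of 13 mitochondrially encoded genes 13 (-0.78). In rod nuclei the medians were -0.71, -0.62 and -0.79, and without 18-month replicate 3 those in cone nuclei were -0.53, -0.51 and -0.86. In that fit 4 ribosomal, 2 oxidative phosphorylation, 1 mitochondrially encoded and 1 rod gene were called lower and 1 Kv4 gene higher, and the other lists had 0 called. In cone nuclei with at most 2% mitochondrial UMIs the mitochondrially encoded median was -0.23. Beside them, 19 of 20 rod genes were below 0 in cone nuclei (median -0.84). The part of rod transcripts in these medians was not tested.

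Cone phototransduction had 19 of 20 genes below 0 (median -0.48), of which 8 had chosen the nuclei. The other 12 had 11 below 0 (-0.26). Without 18-month replicate 3, where fewer nuclei were well inside the gate, 14 of 20 were below 0 (-0.15), and 9 of the other 12 (-0.10). The cone genes outside the gate had 9 of 12 below 0 (-0.17). Glycolysis had 20 of 25 below 0 (-0.36), heat shock and unfolded protein genes 28 of 32 (-0.40), antioxidant genes 15 of 22 (-0.25), outer segment and cilium genes 20 of 29 (-0.21) and cone disease genes outside the gate 15 of 25 (-0.20).

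The Kv4 complex had 7 of 7 genes above 0 (median 1.09) and the adhesion list 42 of 47 (0.76). Leaving out 18-month replicate 3 gave medians of -0.08 and -0.02, so both medians rested on that library. One Kv4 gene was nevertheless called without it, Dpp10, an auxiliary subunit, at a log2 difference of 1.06 (edgeR, adjusted p = 0.0414). Dpp10 stood at 64.3, 46.1 and 84.8 normalised CPM at 3 months and at 76.9, 193 and 539 at 18 months, where the ages overlapped. Ribbon synapse genes had 18 of 30 above 0 (0.14). Lists near the median of all genes were the transcription factors (8 above and 13 below, -0.05), channels and exchangers (8 and 11, -0.08), the visual cycle (5 and 8, -0.09), the circadian clock (10 and 8, 0.05), immediate-early genes (3 and 5, -0.13) and interferon genes (3 and 4, -0.19).

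The lipid lists showed small medians with age. Fatty acid elongation and desaturation had 5 genes above and 12 below 0 (-0.08), DHA uptake and remodelling 6 and 6 (-0.07), and cholesterol synthesis and uptake 6 and 15 (-0.16). Elovl2 stood at 117, 102 and 67.1 normalised CPM in cone nuclei at 3 months and at 149, 73.1 and 32.8 at 18 months, with a log2 difference of -0.27 (edgeR, adjusted p = 0.749). Its ages overlapped, and within each age the libraries differed more than the ages did.

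**Figure D4:**
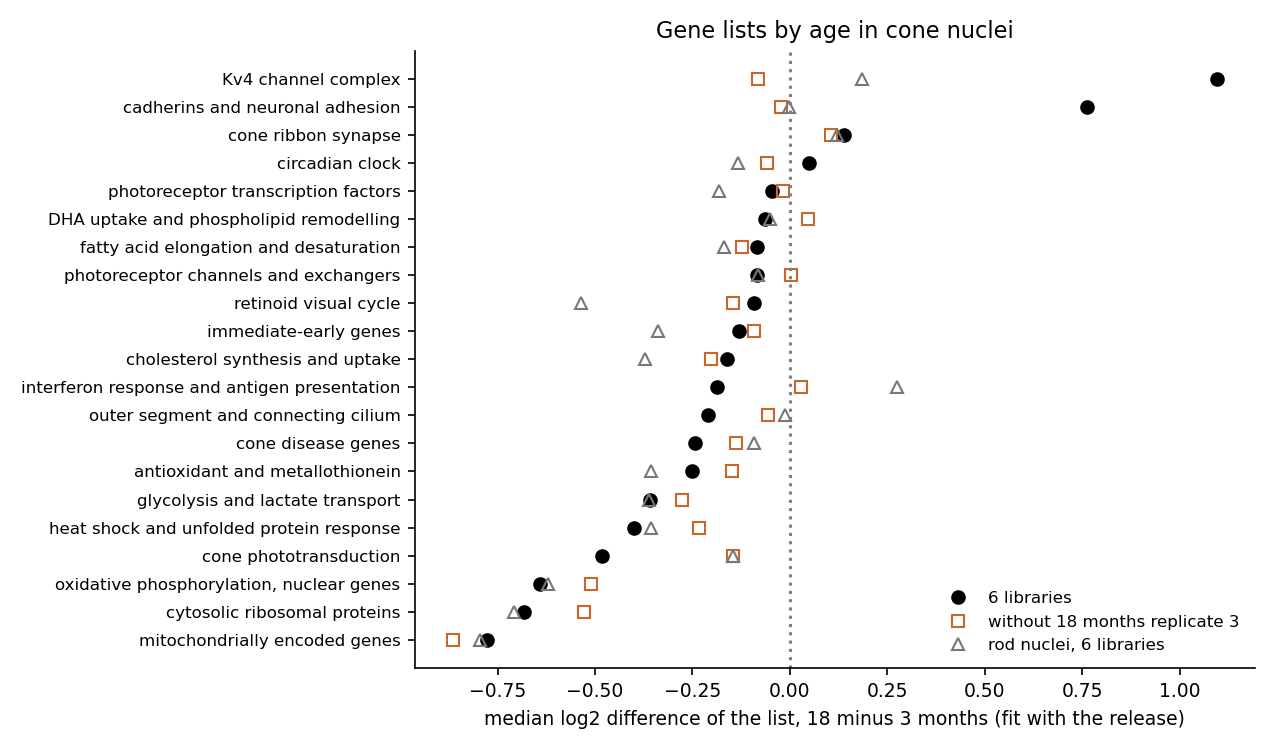
Median log2 difference, 18 against 3 months, of each of 21 gene lists in the release fit, for cone nuclei in 6 libraries, for cone nuclei without 18-month replicate 3, and for rod nuclei; the cone phototransduction and cone disease lists include gate genes. Ribosomal, oxidative phosphorylation and mitochondrially encoded medians lie at or below -0.51 in all 3, and the Kv4 and adhesion medians of 1.09 and 0.76 move to -0.08 and -0.02 without that library.

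Markers of other cell types in the cone sums are given beside the age values. In 3-month and 18-month libraries the summed levels were 567 to 627 and 707 to 1104 CPM for 10 rod bipolar genes, 384 to 432 and 413 to 499.9 for 11 cone bipolar genes, and 748 to 927 and 609.7 to 1528 for 14 Müller glia genes. They were 471 to 890.1 and 774 to 1168 for 11 amacrine genes, 242 to 340 and 223 to 473 for 9 horizontal cell genes, and 505 to 938 and 433 to 1154 for 13 ganglion cell genes. They were 70.1 to 317 and 178 to 362 for 14 pigment epithelium genes, 15.4 to 95.3 and 54.6 to 108 for 14 vascular genes, and 95.9 to 124 and 98.5 to 133 for 13 microglia genes. Only the rod bipolar sums did not overlap between the ages, and they were higher at 18 months. Median log2 age differences were 0.28, 0.21, 0.36, 0.45, 0.10, -0.00, -0.04, 0.35 and -0.14 in that order, with 0 genes called in edgeR. DESeq2 with the release called 1 of these markers, the rod bipolar gene Prkca, higher at 18 months. In no list was any marker at 0 in all 6 cone sums, and the part of these cells in the age values was not tested.

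Whether age differences were unlike in cones and rods was tested as an interaction over 13381 genes. It called 2 (0.0149%), Tnr and Slc4a3. Tnr, a matrix glycoprotein of the nervous system, stood at 90.7, 34.1 and 42.4 normalised CPM in cone nuclei at 3 months and at 92.7, 59.7 and 187 at 18 months. In rod nuclei it stood at 401, 136 and 168 CPM, which are not normalised, and at 150.3, 94.9 and 219. The difference of the age effects, cone minus rod, was 1.59 ± 0.20 on the log2 scale (edgeR, adjusted p = 0.0176).

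Slc4a3, an anion exchanger, stood at 59.7, 42.7 and 54.2 normalised CPM in cone nuclei at 3 months and at 49.3, 39.5 and 65.6 at 18 months, where the ages overlapped. In rod nuclei it stood at 233, 157 and 267 CPM, again not normalised, and at 81.5, 56.3 and 79.3, with no overlap. The difference of the age effects was 1.64 ± 0.21 (edgeR, adjusted p = 0.0176). Both calls were lost without 3-month replicate 2 (adjusted p = 0.196 each) and without 18-month replicate 2 (0.165 each), while the log2 differences were 1.53 and 1.64 for Tnr and 1.62 and 1.61 for Slc4a3. The Tnr call was also lost without 3-month replicate 1 (0.0683), and that of Slc4a3 without 3-month replicate 3 (0.0644), with the stricter gate (0.159) and with over 10 gate UMIs (0.0536).

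Cone nuclei with S-opsin alone and those with M-opsin alone were compared last, a comparison added after the data had been seen. Nuclei with at least 3 UMIs of one opsin and 0 of the other entered it, in libraries with at least 20 of each. These were 38, 23 and 46 S-opsin nuclei and 179, 107 and 96 M-opsin nuclei in the 3-month replicates, and 104 and 88 against 139 and 167 in 18-month replicates 1 and 2. In 18-month replicate 3 there were 7 and 19, and this library was not used. The S-opsin nuclei of a library summed to 25827 UMIs (3-month replicate 2) to 171671 (18-month replicate 1), so low normalised CPM there rest on few UMIs. Of 3649 genes other than the opsins, 25 were higher in S-opsin nuclei (0.685%) and 35 in M-opsin nuclei (0.959%) in edgeR with a term per library, and 470 had an unadjusted p under 0.05.

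Nrxn3, a presynaptic neurexin, stood at 6033, 1991, 1908, 9793 and 2120 normalised CPM in S-opsin nuclei of 3-month replicates 1 to 3 and 18-month replicates 1 and 2. In M-opsin nuclei of the same libraries it stood at 1159, 346, 678, 872 and 1539. S-opsin nuclei were higher in 5 of 5 libraries, with a log2 difference of 2.06 ± 0.25 (edgeR, adjusted p = 7.7e-07). The protocadherin gene Pcdh7 (1.41), Galnt17 (1.44), the cyclase activator gene Guca1a (0.63) and Gm12239, 5430419D17Rik and A930009A15Rik (2.24, 2.13 and 2.01) were also called higher, in 5 of 5 libraries each. In 3-month replicate 2 the step was small for Pcdh7, at 49.8 normalised CPM against 49.4, and for Galnt17, at 49.8 against 41.1. Tenm3 (1.20) and the netrin receptor gene Dcc (0.89) were called higher with 4 of 5 libraries in that direction, and the guidance receptor gene Robo1 (1.27) with 3 of 5. Of the 29 adhesion genes tested, 13 were above and 16 below 0 (median -0.13), with 4 called higher and 1 lower.

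Transcripts of rods and of cytoplasmic lists differed between the same nuclei. Of 20 rod genes 19 were above 0 in S-opsin nuclei (median 0.41), against a median of 0.01 over all 3649 genes, and 1 was called, the rod channel gene Cnga1 at 0.70, higher in 4 of 5 libraries. Ribosomal protein genes had 75 of 77 above 0 (median 0.34, 0 called) and oxidative phosphorylation genes 65 of 70 (0.31, 3 called higher). The part of rod transcripts in the S-opsin differences was not tested.

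In M-opsin nuclei Cdh12, a type II cadherin, was higher, at a log2 difference of -2.14 ± 0.28 for S-opsin minus M-opsin (edgeR, adjusted p = 2.27e-06). The zinc finger gene Tshz2 (-1.59), the G-protein regulator Rgs7 (-1.35), the adhesion gene Mdga2 (-1.29), the potassium channel gene Kcnma1 (-1.02) and Mylk (-0.66) were also higher there in 5 of 5 libraries, and the netrin receptor Unc5d (-1.14) in 4 of 5. The gene models Gm44532 and B130024G19Rik had the largest sizes, at -3.04 and -2.86. Arr3 and Gngt2 were among the 60 genes as well, at -1.43 and 0.98, and since both served in the gate they are given as a description.

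Genes next to the gate genes are set apart here, since 5 of the 60 lie within 100 kb of one, against 12 of the 3649 tested. Ccdc136 (mm10 chromosome 6, 29396309 to 29426994, plus strand), which lies 7841 bases from Opn1sw on the other strand, stood at 2260, 896, 936, 2552 and 685 normalised CPM in S-opsin nuclei and at 328, 115, 172, 564 and 180 in M-opsin nuclei (2.38 ± 0.17; edgeR, adjusted p = 6.57e-12). Calu, a calcium-binding protein gene that overlaps Opn1sw on the other strand, was higher by 1.94 ± 0.29.

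Kif4 stood at 20.7, 49.8, 18.0, 167 and 14.6 normalised CPM in S-opsin and at 492.5, 272, 226, 771 and 38.7 in M-opsin nuclei (-2.50 ± 0.29; edgeR, adjusted p = 2.51e-07), and Pdzd11, 4390 bases from Arr3, at -2.39. Whether the counting used strand is not given in the sources used here, so counts of Calu are uncertain, and the part of gate gene transcripts in these neighbours was not tested. Thrb stood at -0.43 without passing (edgeR, adjusted p = 0.206), lower in S-opsin nuclei in 5 of 5 libraries. Gnb3 stood at 0.04 (adjusted p = 0.957).

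**Figure D5:**
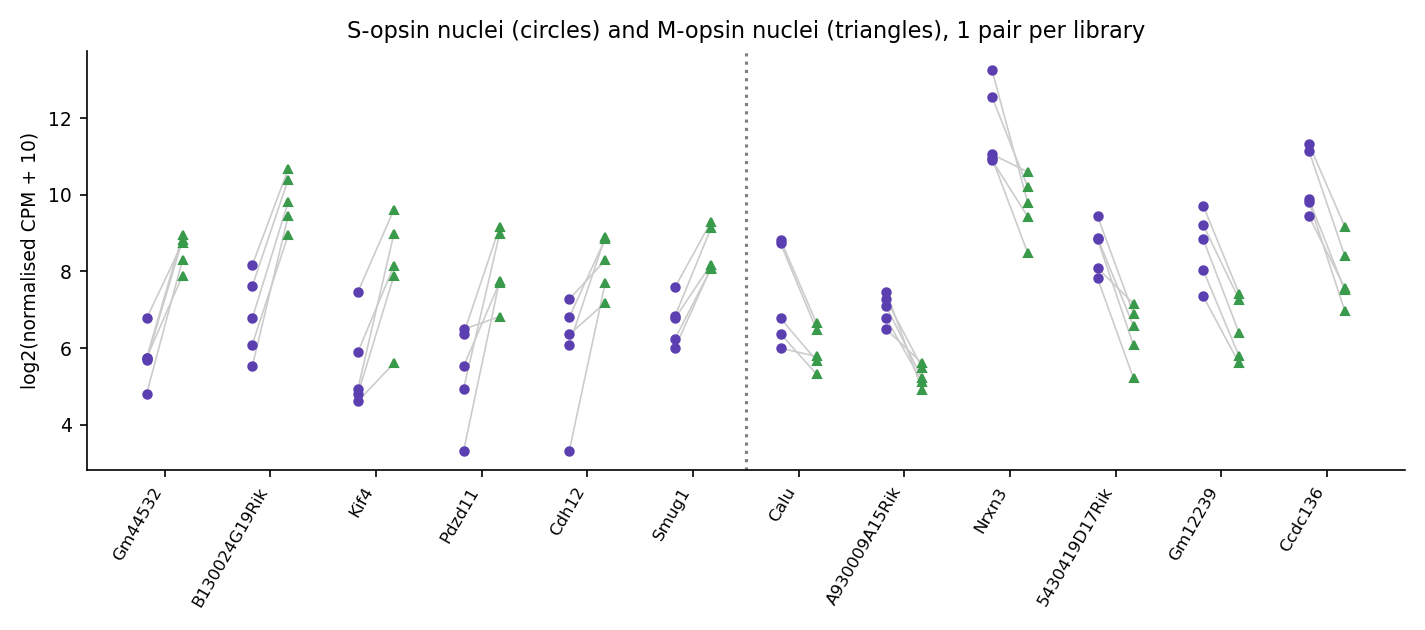
Log2(normalised CPM + 10) of the 6 genes with the lowest and the 6 with the highest log2 difference among the 60, in S-opsin nuclei (circles) and M-opsin nuclei (triangles), 1 point per library for 5 libraries. Ccdc136 and Nrxn3 lie higher in S-opsin nuclei and Kif4 higher in M-opsin nuclei in all 5.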

How the data were processed

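Nuclei were isolated from retina and made into 10x 3' v3.1 libraries, per the labels' protocols. The deposited matrices are of raw UMI counts, made with Cell Ranger 7.1.0 for replicate 1 of both ages and 7.2.0 for the other libraries, per the file headers. The submitters' processing notes name mm10 and Seurat. The lowest barcode total was 500 to 502 UMIs per library, so a lower limit had been applied before deposit.

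The members, the 21 pathway and 11 marker lists (703 genes, 1 absent from the files) and the tests were chosen with earlier results of these data known. Counts were summed per library over gated nuclei (Python 3.11.15, scanpy 1.11.5, numpy 2.4.6, scipy 1.17.1, pandas 2.3.3). They were tested with edgeR 4.0.16 (limma 3.58.1, R 4.3.3): quasi-likelihood test, TMM factors, filterByExpr, and Benjamini-Hochberg adjusted p at or below 0.05 over all genes tested. CPM are scaled to library sums, and normalised CPM use TMM factors. Rod nuclei needed at least 5 of 9 rod genes, 10 rod UMIs, and at most 1 UMI each over the excluded and the cone gate genes. Inner nuclei had at least 5 UMIs over the excluded genes. Doublets were not removed in the main analysis. As an alternative, the highest Scrublet scores were removed at 0.8% per 1000 nuclei. The scripts were tested on simulated data.

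Named genes followed a rule. With age it took the 12 largest changes per direction among called genes of at least 20 CPM, with no overlap between ages, at least 50% of the level in other barcodes and a proper name. Where under 5 were called it took the 5 lowest p, as here. Between cones and rods it took the 12 largest differences per direction with at least 50 CPM. From each list it took up to 4 members. Some genes that the rule takes are not reported here.

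Same-numbered libraries of the 2 ages had correlated deviations from their age means (0.64, 0.61 and 0.21), so the numbers were taken to pair the libraries. Replicate 1 is also the release 7.1.0 pair, and 3-month replicate 3 correlated better with 18-month replicate 2 (0.53). Alternatives were DESeq2 1.42.0, RLE factors, no low-count filter, a stricter gate (at least 4 genes, 6 UMIs, 0 excluded UMIs), mitochondrial limits of 2% and 10%, thinning to 1000 UMIs, Scrublet, a replicate block, the release 7.2.0 libraries alone and each library left out. The limit of over 10 gate UMIs, a release by cell type term and the whole opsin comparison were added after the data had been seen. Coordinates are from GENCODE M21 (mm10), which holds 32235 of the 32285 gene identifiers.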

Additional observations from a re-analysis of the deposited data

Results flagged for a closer look

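Tnr and Slc4a3 drew a closer look because their age effects differed between cone and rod nuclei by the test of the interaction. The difference of the age effects, cone minus rod, was 1.593 on the log2 scale for Tnr and 1.639 for Slc4a3 (edgeR, adjusted p = 0.0176 each). In rod nuclei Slc4a3 averaged 219 ± 56.4 CPM (not normalised) at 3 months and 72.3 ± 14.0 at 18 months (SD, n = 3), and Tnr 235 ± 145 and 155 ± 62.3. Tnr in cone nuclei was highest in 18-month replicate 3, at 187 normalised CPM, and without that library both differences passed (adjusted p = 0.0105 each in edgeR).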

How the results depend on the processing

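The 18 minus 3 month difference in the cone share, -1.90 percentage points, was 0.0863 with all deposited barcodes as the denominator, and leaving out each library gave -3.28 to -0.345. It ranged from -3.27 with a mitochondrial limit of 10% to -1.26 after thinning. With age alone DESeq2 called 2 genes and the unfiltered fit 1. With the release these called 67 and 212, and leaving out each library gave 0 to 25, with 25 without 18-month replicate 3. The replicate block gave 0 calls (1128 at an unadjusted p under 0.05) and a share difference of -1.90, and changed no call. The interaction of age and cell type called 2 genes, but 4 with RLE factors (Rgs6 and Alpk2 in addition), 22 with the stricter gate, 27 with over 10 gate UMIs and 92 with a release by cell type term. Leaving out each library gave 0 to 316, with 316 without 18-month replicate 1, so this count is unstable. Cone against rod calls were 2396, and 1651 to 2909 with a library left out, 2537 with RLE factors, 2727 with the stricter gate and 3086 with over 10 gate UMIs. S-opsin against M-opsin calls were 60, but 103 with 2 opsin UMIs and 32 to 42 with a library left out, and 134 of 347 results of single genes lost their call with the direction kept. Leaving out each library moved the list median of the circadian clock from -0.18 (3-month replicate 2; -0.14 without 18-month replicate 1) to 0.018, that of the Kv4 list from -0.082 to 1.65 and that of adhesion from -0.023 to 1.34, both lowest without 18-month replicate 3. For interferon genes the range was -0.12 to 0.47, highest without 3-month replicate 3, and the median was 0.43 without the filter. The cause of these changes was not tested. Cone sums of 647646 to 1878244 UMIs limit the test of genes under about 20 CPM.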

Other observations

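Trim43c and Drd4 were among the 25 genes that passed in the release fit without 18-month replicate 3. Trim43c, a tripartite motif gene, stood at 48.2, 11.9 and 18.8 normalised CPM in cone nuclei of 3-month replicates 1 to 3 and at 159.7, 53.9 and 35.5 in those of 18-month replicates 1 to 3. The Trim43c log2 difference without that library was 1.74 (edgeR, adjusted p = 0.000133). Its ages overlapped over 6 libraries, through 18-month replicate 3, and not without it. Drd4, the dopamine receptor of photoreceptors, stood at 131, 497 and 499 and at 78.9, 234 and 95.7, a log2 difference of -0.96 without that library (edgeR, adjusted p = 0.0365). Over 6 libraries neither passed in edgeR with the release (adjusted p = 0.498 each). DESeq2 with the release and all 6 libraries gave Drd4 an adjusted p of 0.0226. Both genes were chosen after their values had been seen.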
